A study of Homo sapiens with 12 samples.

Results

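The STAR and RBFOX families are 2 groups of RNA-binding splicing factors, represented here by 8 genes, QKI, KHDRBS1, KHDRBS2, KHDRBS3 and SF1 on the STAR side and RBFOX1, RBFOX2 and RBFOX3 on the RBFOX side. They were picked by gene symbol, without use of any measured value, from the 48114 genes that the study's tables list for each cell line. All 8 symbols had 1 row each. The study works on pancreatic ductal adenocarcinoma (PDAC) and asks which splicing factors set the exon choices of its subtypes. PolyA RNA was sequenced in 12 libraries in 4 groups of 3. PANC-1, a PDAC line that the study treats as basal-like, was transfected with a control siRNA (PANC-1 siCtrl), with siRNAs against QKI (PANC-1 siQKI) or with siRNAs against RBFOX2 (PANC-1 siRBFOX2), the knockdown siRNAs at 40 nM, and was collected after 48 h. HPAF-II, a PDAC line treated as classical, received the control siRNA (HPAF-II siCtrl). Each arm is 1 established line under a transient knockdown, and the control and QKI siRNAs were commercial pools.

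STAR proteins carry a KH domain flanked by conserved sequence that binds RNA and, in most members, holds the proteins in pairs. QKI binds introns beside regulated exons and is best known from myelination and from the mesenchymal state of epithelial cells. KHDRBS1 (Sam68), KHDRBS2 (SLM1) and KHDRBS3 (SLM2) bind A- and U-rich RNA, and SF1 recognises the branch point when an intron is first defined. RBFOX proteins bind a short motif through 1 RNA recognition motif. RBFOX1 and RBFOX3 are known from neurons and muscle, whereas RBFOX2 is found in many tissues. Where a paralogue takes over from a depleted member, its own RNA can rise, and the question put to these libraries was whether any did.

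The sequences below show where the core motifs of both proteins occur in the RNAs of the 2 knocked-down genes themselves, because RNA-binding proteins of this kind can act on the transcripts of their own family. They come from the GENCODE v29 transcripts of GRCh38, the longest coding transcript of each gene, read on the transcript strand only. Capitals mark ACTAAC, the core of the QKI response element, or TGCATG, the RBFOX motif, and 10 bases are given on each side. The 2 motifs do not overlap each other here.
QKI ACTAAC at 1573: gccaccggcaACTAACctatgacctt
QKI ACTAAC at 4663: ataccaacctACTAACtctggacttt
QKI ACTAAC at 4756: gagttactggACTAACcctgaagaac
QKI TGCATG at 7500: aacggagaacTGCATGaccgtacatg
QKI TGCATG at 7542: ctggaaaaagTGCATGtgcttcatcc
QKI TGCATG at 7610: ccccagaaaaTGCATGtatcaatatg
RBFOX2 TGCATG at 710: ccgaaacggcTGCATGtctctaatat
RBFOX2 TGCATG at 4358: tcacagtacaTGCATGattctttttc

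Positions count from the first base of the transcript. The QKI transcript of 9463 bases held 3 matches to ACTAAC and 7 to TGCATG, the last 3 of them within 116 bases. Only these last 3 TGCATG matches are printed above, and the others start at 2037, 2805, 5479 and 6758. Among 1248 genes whose longest coding transcript is of like length, 9.62% had at least as many ACTAAC matches and 2.88% at least as many TGCATG matches. The RBFOX2 transcript of 6932 bases held no ACTAAC, where 47.2% of 2444 transcripts of like length held at least 1, and 2 TGCATG matches, a number that 53.6% of them reached. A match is a run of letters and says nothing of binding.

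The gene value of QKI sums its isoforms, QKI-5, QKI-6 and QKI-7, which differ at their 3′ ends. The study's isoform assays use a reverse primer for each isoform, shown because the values below cannot tell the isoforms apart.
QKI-5: ttagttgccggtggcggctcgg
QKI-6: ttagcctttcgttgggaaagcc
QKI-7: tcaatgggctgaaatatcaggc
Read as its complement, the QKI-5 primer covers bases 1556 to 1577 of the QKI transcript and runs 5 bases into the first ACTAAC. These primers matched 2, 3 and 3 of the 6 basic coding transcripts of QKI in GENCODE, and no other gene. The transcripts QKI-201 and QKI-205 carry both the QKI-6 and the QKI-7 site, so a match alone does not separate QKI-6 from QKI-7.

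The knockdowns come first, since they check the labels. QKI (chr6:163414643-163578592, hg38) stood at 25909, 24539 and 26150 normalized counts in PANC-1 siCtrl, counts that the authors had divided by a size factor for each library. It stood at 4630, 5453 and 5020 in PANC-1 siQKI. The 2 groups lay far apart, and 19.7% of the control mean remained. On the log2 scale this is a change of -2.34 ± 0.06 (standard error, adjusted p = 9.2e-13). RBFOX2 (chr22:35738736-36028824) stood at 15355, 15508 and 15424 in PANC-1 siCtrl and at 2403, 2171 and 1712 in PANC-1 siRBFOX2. The knockdown left 13.6% of the control mean, and on the log2 scale RBFOX2 changed by -2.89 ± 0.09 (standard error, adjusted p = 4.7e-11). In both cases the targeted gene was low in the libraries whose label names it. Tests are limma on log2(normalized count + 1), adjusted over 22544 genes, those whose PANC-1 mean reached 10. The labels call the 3 libraries of a group biological replicates. A p-value sets a difference against the spread between replicates, pooled over the 3 PANC-1 groups and drawn towards a trend over all tested genes.

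**Figure D1:**
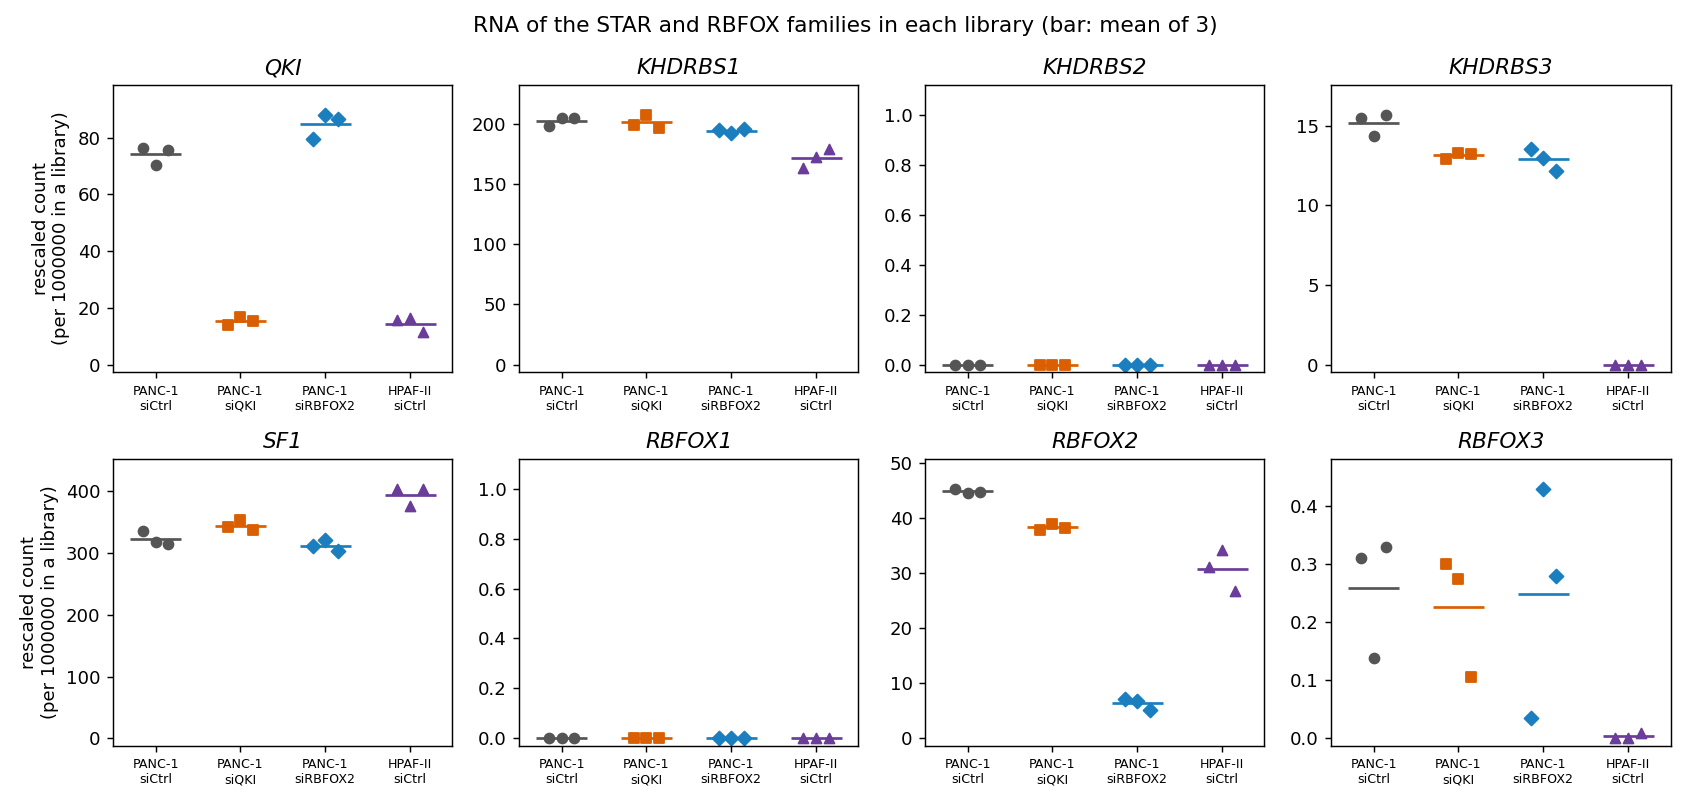
RNA of each member in each of the 12 libraries, as counts rescaled to a total of 1000000 in a library, on a linear axis from 0, with 1 panel per gene, 1 symbol per library and a bar at the mean of 3. QKI and RBFOX2 fall where they were targeted, KHDRBS3 is at 0 in HPAF-II, and KHDRBS2 and RBFOX1 are at 0 in all 12 libraries.

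Of the 8 members, 6 could be tested. KHDRBS2 (chr6:61542670-62286225) and RBFOX1 (chr16:6019024-7713340) were listed at 0 in all 12 libraries, before and after either knockdown. In siQKI, 3 of the 6 passed the threshold, all of them lower, the targeted QKI and besides it KHDRBS3 and RBFOX2. Over all tested genes 33.0% passed in that comparison, 18.1% of genes in the lower direction. In siRBFOX2, 4 of the 6 passed, again all lower, the targeted RBFOX2 and besides it KHDRBS3, KHDRBS1 and SF1. There 26.5% of all genes passed and 14.5% passed as lower. Both member counts include the siRNA target, whose fall was set by the design. By limma 0 members rose past the threshold in either knockdown. At an unadjusted p under 0.05 the number was 0 in siQKI and 1 in siRBFOX2, QKI itself, and no other tool was run. The 3 siCtrl libraries serve both knockdowns, so the values of one are not independent of the other's. The libraries of knockdown and control did not overlap for 3 of the 6 members in siQKI, where this held for 44.7% of all tested genes, and for 5 of the 6 in siRBFOX2, against 37.9%. The targeted gene is again part of both counts. Calls in the higher direction made up 14.9% and 12.0% of all tested genes. The split of all calls into higher and lower depends on the scaling. As deposited, 45.2% of the calls in siQKI were higher, and 62.7% after rescaling by the upper quartile. For siRBFOX2 these shares were 45.3% and 56.2%.

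**Figure D2:**
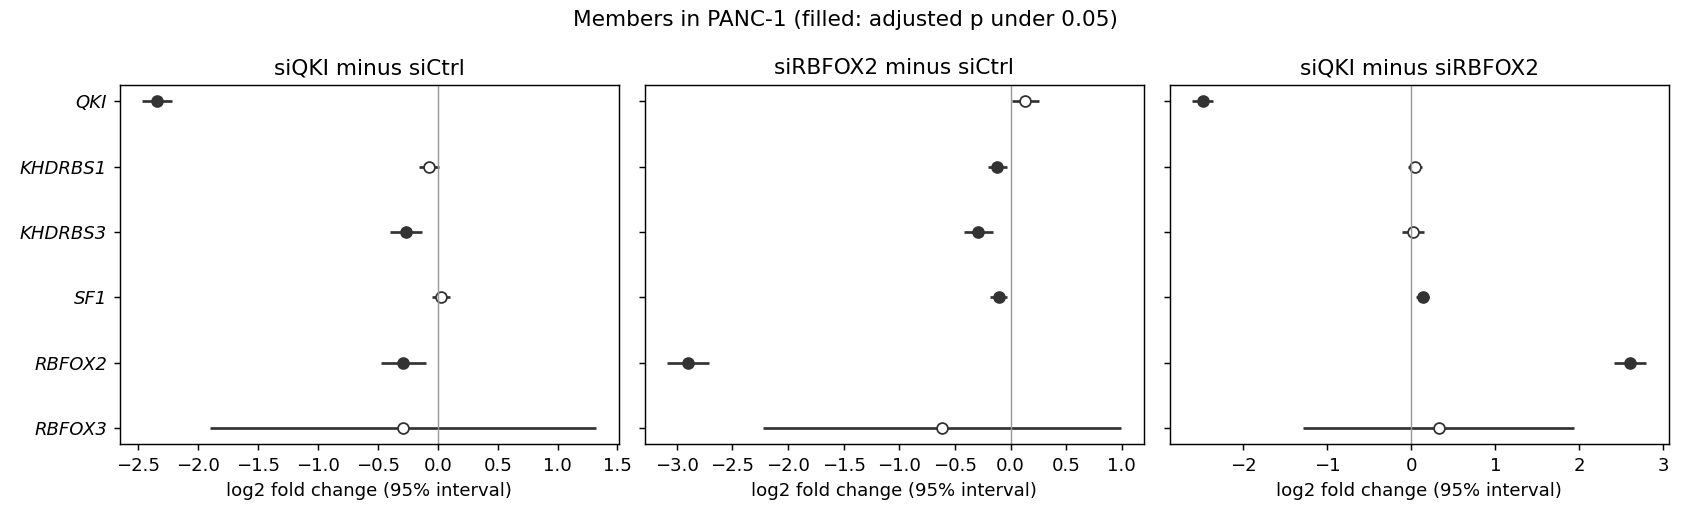
Log2 fold changes of the 6 tested members in PANC-1 with 95% intervals, for siQKI and siRBFOX2 against siCtrl and for the knockdowns against each other. Filled points passed an adjusted p of 0.05, and the only filled points right of 0 are RBFOX2 and SF1 in siQKI minus siRBFOX2.

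Among the STAR paralogues, KHDRBS3, a regulator of neuronal and testicular exons, moved most. Its row (chr8:135457456-135647610) read 5259, 4994 and 5419 in siCtrl, 4308, 4367 and 4347 in siQKI, and 4568, 4185 and 4078 in siRBFOX2. Every knockdown library lay below every control library. It was lower by -0.27 on the log2 scale in siQKI (95% interval -0.40 to -0.13, adjusted p = 0.0034) and by -0.29 in siRBFOX2 (-0.42 to -0.16, adjusted p = 0.0026). The difference between the knockdowns was 0.02 (-0.11 to 0.15, adjusted p = 0.85). Over all tested genes, 9.70% passed as lower in both knockdowns.

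KHDRBS1, a widely expressed signalling-linked STAR protein (chr1:32013854-32060850), was far higher. It read 67186, 71356 and 70862 in siCtrl, 66425, 68152 and 64729 in siQKI, and 65582, 61970 and 65518 in siRBFOX2. The siRBFOX2 libraries lay below all controls, while those of siQKI overlapped them. In siRBFOX2 the log2 fold change was -0.12 (95% interval -0.20 to -0.03, adjusted p = 0.039). In siQKI it was -0.07 (-0.16 to 0.01, adjusted p = 0.19), and it turned to 0.01 after upper quartile rescaling. In percent, that interval ran from -10.2% to 0.903%. The siRBFOX2 call was lost without siCtrl replicate 2 or 3, siQKI replicate 2, or siRBFOX2 replicate 1 or 2, with adjusted p from 0.051 to 0.14, and with a replicate block (adjusted p = 0.059). It was also lost with no filter on low values, with only the groups compared, without the trend and after upper quartile rescaling, with adjusted p of 0.059, 0.066, 0.14 and 0.20.

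TMEM234, a gene annotated across the same stretch of chromosome 1, overlaps KHDRBS1, and whether reads were counted by strand is not stated. It read 2108, 1846 and 1962 in siCtrl, 2611, 2356 and 2444 in siQKI, and 1755, 1886 and 1918 in siRBFOX2. It rose by 0.33 in siQKI (adjusted p = 0.0066), where KHDRBS1 stood at -0.07 without passing the threshold, and was at -0.09 in siRBFOX2 (adjusted p = 0.50). Its mean of 2098 over the PANC-1 libraries is small beside that of KHDRBS1, 66865.

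SF1, the branch point binding protein (chr11:64764606-64778769), had the highest value of all members, 114021, 110982 and 108460 in siCtrl. It read 113919, 115957 and 110716 in siQKI and 104789, 103669 and 101512 in siRBFOX2. The siQKI libraries overlapped the controls and the siRBFOX2 libraries lay below them. The log2 fold change was 0.03 in siQKI (95% interval -0.04 to 0.11, adjusted p = 0.57) and -0.11 in siRBFOX2 (-0.18 to -0.03, adjusted p = 0.039). The call in siRBFOX2 was lost without siCtrl replicate 1 or 2, siQKI replicate 2 or 3, or any siRBFOX2 library, with adjusted p from 0.051 to 0.13. The same 4 settings that ended the KHDRBS1 call ended this one, with adjusted p of 0.065, 0.070, 0.13 and 0.30. Between the knockdowns SF1 was higher in siQKI by 0.14 (0.06 to 0.21, adjusted p = 0.012), where 21.5% of all genes passed and 9.93% passed as higher in siQKI (11.6% as lower). Besides the targeted QKI and RBFOX2, SF1 was the only member whose libraries did not overlap between the knockdowns. That made 3 of the 6 members, against 35.2% of all tested genes. Without siQKI replicate 2 the adjusted p of the SF1 difference was 0.064.

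Across families, RBFOX2 was lower in siQKI, at 12629, 12778 and 12520. These 3 libraries lay together, below all controls, and the log2 fold change was -0.29 (95% interval -0.48 to -0.10, adjusted p = 0.021). Leaving out siCtrl replicate 2 or 3, or siQKI replicate 1 or 3, took the adjusted p to between 0.051 and 0.059. It was also lost without the mean-variance trend (adjusted p = 0.11) and after upper quartile rescaling (log2 fold change -0.20, adjusted p = 0.096), while a fit of the 2 groups alone gave 1.2e-04. In the other direction QKI stood at 26742, 28333 and 28973 in siRBFOX2, above every control library. The log2 fold change was 0.13 (0.01 to 0.26), and the adjusted p of 0.11 missed the threshold.

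RBFOX3 (NeuN, chr17:79089345-79611051) is the only RBFOX paralogue with any value in PANC-1. It read 105, 48.0 and 114 in siCtrl, 100.3, 89.8 and 34.6 in siQKI, and 11.6, 138 and 93.6 in siRBFOX2. The libraries of all groups overlapped. Its log2 fold change in siRBFOX2 was -0.62 with a 95% interval from -2.23 to 0.99 (adjusted p = 0.62). In percent the interval reached from -78.6% to 99.2%, so the values are compatible with a fall or a rise of such size. For a gene this low the test could decide little. The value in siRBFOX2 replicate 1 decided the sign, since without it the log2 fold change was 0.45.

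How much of the lost RNA the paralogues made up can be set out per kilobase of exon, which puts genes of different length on 1 scale. QKI lost 1296 normalized counts per kb in siQKI. Over the same comparison KHDRBS1 changed by -1221 ± 597 per kb (standard error of the difference), KHDRBS3 by -377 ± 53.4 and SF1 by 570 ± 532. Their summed change was -79.3% ± 61.8 of the loss of QKI. That sum rests on small relative shifts of 2 abundant RNAs, and it turned to 167% after upper quartile rescaling. Its sign therefore depends on the scaling. RBFOX2 lost 1838 per kb in siRBFOX2, and RBFOX3 changed by -2.27 ± 12.4 per kb, -0.124% ± 0.676 of the loss. RBFOX1 stayed listed at 0. The change of RBFOX3 lay between -0.577% and 0.425% of the loss in every alternative tried.

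Per kilobase of the union of exons, SF1 and KHDRBS1 held most of the STAR sum, 47.8% ± 1.28 (SD, n = 3) and 45.3% ± 1.32 in PANC-1 siCtrl. KHDRBS3 held between 3.80% and 4.16% in the 3 libraries and QKI 2.89% ± 0.114. QKI fell to 0.595% ± 0.0431 in siQKI and stood at 3.43% ± 0.182 in siRBFOX2. The STAR sum itself was 162 ± 1.61 rescaled counts per kb in siCtrl and 162 ± 4.13 in siQKI. On this scale mean QKI went from 4.69 to 0.966, SF1 from 77.5 to 82.6, KHDRBS1 from 73.6 to 73.1 and KHDRBS3 from 6.49 to 5.62. The summed change of the paralogues thus had the opposite sign to that in normalized counts above. RBFOX2 was 98.8% ± 0.484 of the RBFOX sum in siCtrl and 92.2% ± 5.90 in siRBFOX2, where the whole sum fell from 6.26 ± 0.0789 to 0.946 ± 0.141. In siCtrl the order of levels per kb was SF1, KHDRBS1, KHDRBS3, RBFOX2, QKI, RBFOX3, with KHDRBS3 and RBFOX2 as the only neighbours among these 6 whose libraries overlapped. With the longest coding transcript as the length, QKI ranked above KHDRBS3 and RBFOX2, at 7.84 ± 0.345 (SD, n = 3) rescaled counts per kb against 7.68 ± 0.372 and 6.47 ± 0.0600, and its libraries overlapped those of KHDRBS3. The share of QKI in the STAR sum was then 4.30% ± 0.164 in siCtrl, so the place of QKI in the order depends on the length used.

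**Figure D3:**
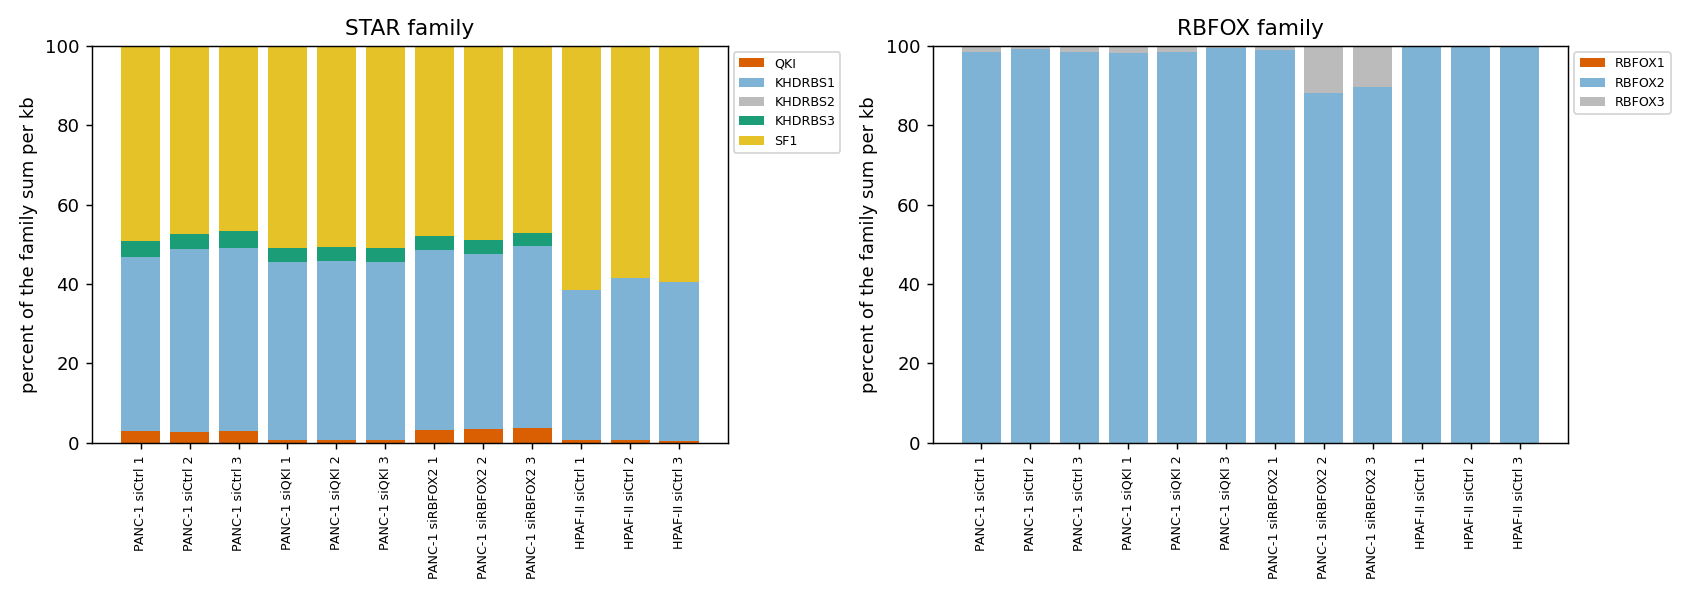
Share of each member in the summed level per kb of its family, 1 bar per library, in percent from 0 to 100, for the STAR family (left) and the RBFOX family (right). QKI is a thin layer even in siCtrl, 2.89% on average, and RBFOX3 reaches 7.76% of the RBFOX sum in siRBFOX2 on average, where its own mean was 81.2 normalized counts against 89.0 in siCtrl.

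An unnamed locus, GSHG0029452 (chr22:35838278-35839433), lies within the annotated span of RBFOX2 and did not fall with RBFOX2. Its place relative to the exons and its strand were not checked. It read 4555, 4830 and 4143 in siCtrl, 5881, 4876 and 4969 in siQKI, and 5670, 4739 and 5327 in siRBFOX2. It was at 0.22 in siRBFOX2 (95% interval 0.03 to 0.40, adjusted p = 0.078), where RBFOX2 fell by 2.89 on the log2 scale. In HPAF-II it read 7263, 9048 and 12351.

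**Figure D4:**
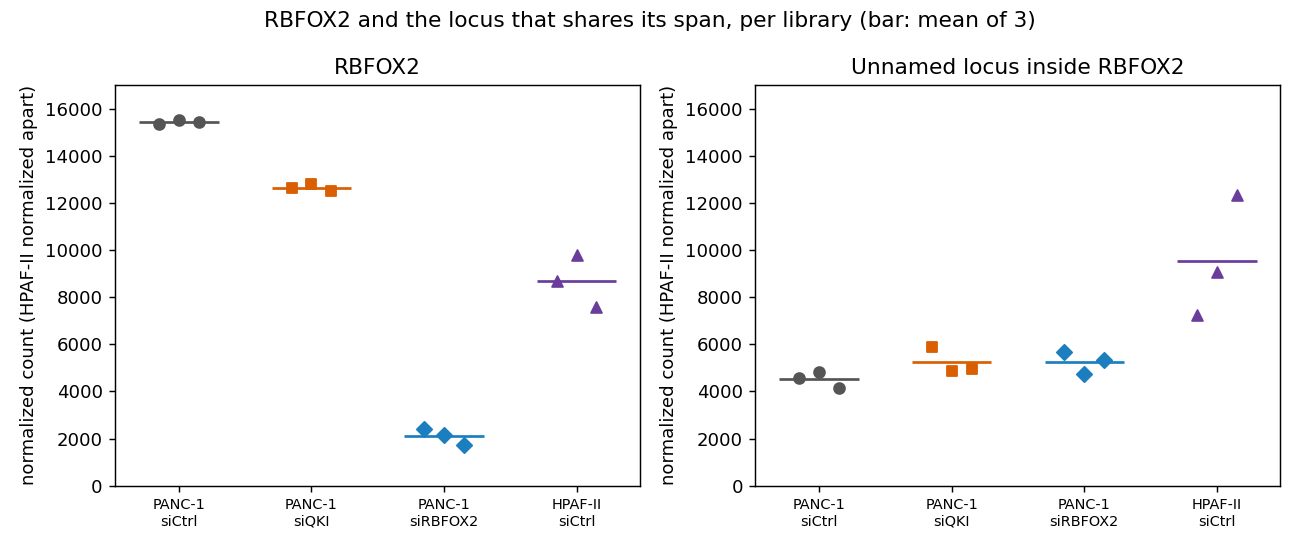
Normalized counts of RBFOX2 (left) and of the unnamed locus within its span (right) in each library, on the same linear axis from 0, with bars at the mean of 3 and HPAF-II normalized apart from PANC-1. RBFOX2 drops to 1712 to 2403 in siRBFOX2, while the locus keeps between 4739 and 5670.

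HPAF-II and PANC-1 were normalized apart, so their levels are given as counts rescaled to a total of 1000000 per library, without a test. Of 6 epithelial markers, 5 were at least 2-fold higher in HPAF-II. The exception, CLDN4, averaged 194 in PANC-1 siCtrl and 159 in HPAF-II, with overlapping libraries. Of 5 mesenchymal markers 4 were at least 2-fold lower in HPAF-II, CDH2 at 0 among them, and SNAI2 was higher. FN1, another of the 4, was low in both lines, at 0.392 in PANC-1 siCtrl and 0.132 in HPAF-II, and its libraries overlapped. VIM, the mesenchymal filament protein, averaged 5422 in PANC-1 siCtrl and 5.26 in HPAF-II (0.283 to 15.2 in single libraries), and CDH1, the epithelial cadherin, averaged 2.87 and 196. QKI read 76.5, 70.5 and 75.7 in PANC-1 and 15.6, 16.5 and 11.3 in HPAF-II, a log2 ratio of -2.36. The siQKI libraries of PANC-1 read 13.9, 16.6 and 15.3 on this scale, a range that holds 2 of the 3 HPAF-II values. Among 24673 genes expressed in either line, 52.4% differed at least 2-fold and 25.2% were at least 2-fold lower in HPAF-II. The libraries of the lines did not overlap for 63.7% of these genes, and for 6 of the 6 members with any value. RBFOX2 read 45.3, 44.5 and 44.7 in PANC-1 and 31.1, 34.1 and 26.7 in HPAF-II, a log2 ratio of -0.55. KHDRBS1 was at -0.24. SF1 was at 0.29 and turned to -0.04 when the libraries were rescaled by the upper quartile. In polyA RNA from whole cultures, fewer cells with an RNA and less of it per cell cannot be told apart.

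KHDRBS3 was listed at 0 in all 3 HPAF-II libraries, against 15.5, 14.3 and 15.7 in PANC-1. Of the 7187 genes at least as high as KHDRBS3 in PANC-1 siCtrl, 51 (0.710%) were listed at 0 in every HPAF-II library, and CDH2, the mesenchymal cadherin, was another of them. RBFOX3 was at 0, 0 and 0.00969 in HPAF-II. Of 6 neuronal markers, SYP, SNAP25, MAP2 and TUBB3 were at least 2-fold lower in HPAF-II, SNAP25 at 0 there, while ELAVL4 was at 0 in both lines and ELAVL3 averaged 0.0229 in PANC-1 siCtrl and 0.0343 in HPAF-II. Their summed level was 405 to 434 in PANC-1 siCtrl, 508 to 526 in siQKI, 475 to 499 in siRBFOX2 and 48.4 to 66.9 in HPAF-II, and TUBB3, a tubulin, made up most of it, with means of 394 in PANC-1 siCtrl and 55.3 in HPAF-II. Of 6 fibroblast markers, 3 were at 0 in PANC-1 siCtrl and 1 in HPAF-II, with sums of 11.7 to 13.4, 25.3 to 28.8, 15.2 to 22.6 and 19.1 to 23.2 in siCtrl, siQKI, siRBFOX2 and HPAF-II. COL1A1, a collagen chain, rose by 0.99 on the log2 scale in siQKI and by 0.42 in siRBFOX2, and PDGFRB by 1.42 and 0.89. The 5 leukocyte markers summed to 144 to 167 in PANC-1 siCtrl, 116 to 118 in siQKI, 126 to 133 in siRBFOX2 and 1151 to 1240 in HPAF-II. LYZ, lysozyme, averaged 0.0162 in PANC-1 siCtrl and 1094 in HPAF-II, CD68 averaged 158 and 93.7, and PTPRC, the pan-leukocyte marker, was at 0 in both. The part of these markers in the members' values was not tested.

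The genes that work beside the members were read from 4 lists. Of 20 genes of branch site recognition, the partners of SF1 and the U2 snRNP proteins that follow it, 11 fell and 1 rose in siQKI, where 18.1% of all tested genes fell and 14.9% rose. The median log2 fold change was -0.24 against 0.03 over all tested genes. Without sign the median was 0.24 against 0.29, and in siRBFOX2 it was 0.17 against 0.25. The strongest falls were UHMK1, the kinase that phosphorylates SF1 (-0.54, adjusted p = 1.4e-06), U2AF1, the 3′ splice site reader (-0.52, adjusted p = 5.0e-06), and PHF5A, an SF3B subunit (-0.49, adjusted p = 2.2e-06). U2AF2, the direct partner of SF1, was the gene that rose (0.12, adjusted p = 0.015), and it fell in siRBFOX2 (-0.21, adjusted p = 5.1e-04). In siRBFOX2, 9 fell and 0 rose by limma (0 also at an unadjusted p under 0.05), where 14.5% of all tested genes fell and 12.0% rose, with a median of -0.17 against 0.01. RBM17 (-0.37), PHF5A (-0.35) and SF3A1 (-0.29) fell most, with adjusted p of 1.1e-05, 1.1e-04 and 6.9e-05. In the other 11 genes of the list in siRBFOX2, SF3B1 among them at -0.03, the test was not passed.

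Of 10 genes tied to the RBFOX complex, the large assembly of splicing regulators (LASR) and the ataxins, 3 rose and 4 fell in siQKI, and 1 rose and 2 fell in siRBFOX2. These are 7 and 3 of the 10, where 33.0% and 26.5% of all tested genes passed, so the siRBFOX2 count is near the background. The median log2 fold changes were -0.03 and -0.06. Medians without sign were 0.17 and 0.08, against 0.29 and 0.25 over all tested genes. ATXN1 (0.32), ATXN2 (0.18) and MATR3 (0.16) rose in siQKI, and ILF2 (-0.31) and HNRNPC (-0.20) were among those that fell. In siRBFOX2, HNRNPH1, which binds G-rich RNA, rose (0.26, adjusted p = 8.7e-04), while ILF2 (-0.36) and HNRNPC (-0.11) fell. MATR3 shares its row with SNHG4.

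Of 14 genes of STAR signalling, which modify or bind Sam68, 4 rose and 3 fell in siQKI, and 3 rose and 4 fell in siRBFOX2, with median log2 fold changes of -0.08 and 0.05. The 7 called in each knockdown are 50.0% of the list, against 33.0% and 26.5% of all tested genes. The typical change was smaller than in that background, with medians without sign of 0.19 and 0.18 against 0.29 and 0.25. PTK6, the breast tumour kinase that phosphorylates Sam68, rose in siQKI (0.63, adjusted p = 3.7e-04) and in siRBFOX2 (0.44, adjusted p = 0.0076). SIAH1, a ubiquitin ligase that acts on KHDRBS3 protein, rose by 0.60 and 0.81. SIAH2 rose in siQKI (0.42) and FYN in siRBFOX2 (0.41, adjusted p = 0.042). GRB2, an adaptor, fell in both (-0.29 and -0.41). MAPK3 fell in siQKI (-0.19), and NCK1 in siRBFOX2 (-0.20).

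Of 18 RNAs known as targets of QKI, RBFOX2 or KHDRBS1, 4 rose and 7 fell in siQKI, and 4 rose and 5 fell in siRBFOX2, with medians of -0.05 and 0.04. This is 61.1% and 50.0% of the list, against 33.0% and 26.5% of all tested genes. Medians without sign were 0.31 and 0.43, against 0.29 and 0.25. A gene value does not show exon choice, so these are changes in amount alone. CCND1, whose isoforms Sam68 sets, fell by 0.55 in siQKI and by 1.04 in siRBFOX2. MBP fell by 0.68 and by 0.89. BCL2L1 fell by 0.68 and by 0.56, and CD44 fell by 0.32 and by 0.69. EPB41, a known RBFOX2 exon target, rose by 0.52 and 0.68. MAP1B rose by 0.33 and 0.51, FGFR2 rose by 0.29 in siQKI, and HIPK3, host of a known circular RNA, rose by 0.51 in siRBFOX2. MBP is also on the list of 6 oligodendrocyte markers, whose summed rescaled count was 184 to 198 in siCtrl, 122 to 128 in siQKI and 102 to 109 in siRBFOX2, with OLIG2 listed at 0 in PANC-1 siCtrl and in HPAF-II.

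**Figure D5:**
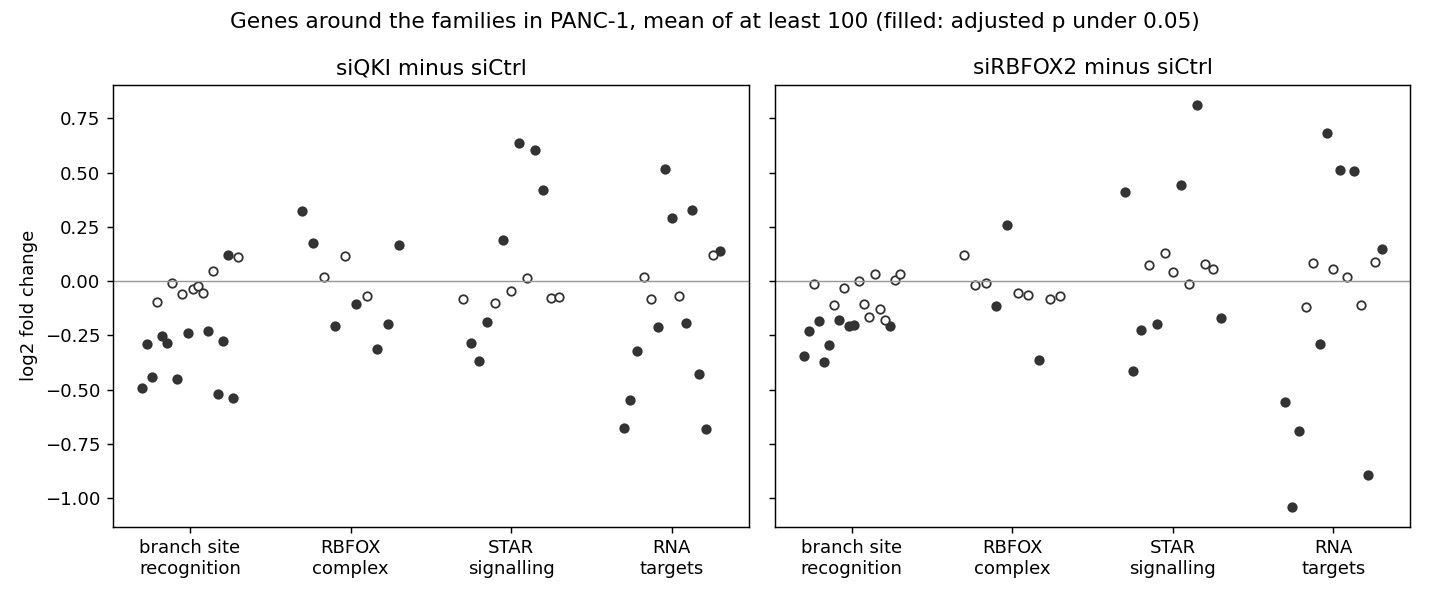
Log2 fold changes of the genes of the 4 lists with a mean of at least 100 in PANC-1, for siQKI (left) and siRBFOX2 (right) against siCtrl, with filled points past an adjusted p of 0.05. The branch site list lies mostly below 0 in both panels, with medians over the whole list of -0.24 and -0.17 in the scaling as deposited.

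The genes whose values were most like a member over the 9 PANC-1 libraries are given by Pearson's r, as a description that mainly follows the 3 groups. For QKI these were AKAP12 (r = 0.998), UFC1 (0.998) and CYB5R1 (0.996). UFC1 fell by 1.87 on the log2 scale in siQKI and was at 0.02 in siRBFOX2. For RBFOX2 they were SHISA5 (0.998), GALNT1 (0.997) and WRNIP1 (0.997). KHDRBS1 was most like UBAC1 (0.978), SRSF2 (0.967) and PPP2R2D (0.966), KHDRBS3 like ZMYND8 (0.976) and PPME1 (0.975), and SF1 like CERKL (0.971), PIWIL4 (0.965) and TGFBR3 (0.963). RBFOX3 reached 0.890 with ACTA1, 0.881 with SNORD124 and 0.881 with LINC01191, and with no gene 0.95. Of 15249 genes compared, 267 reached 0.95 with QKI, 130 with RBFOX2, 33 with KHDRBS3, 10 with SF1 and 7 with KHDRBS1.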

How the data were processed

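RNA of 9 PANC-1 and 3 HPAF-II libraries was examined. Each deposited signal value is a count of a gene after division, by the authors, by the library's DESeq2 size factor, in 1 table per line. Reads were aligned to hg38 with STAR, 2.7.5a per the submitters' processing notes while the study's methods name another version, and genes were taken from FAST DB. Every value was a whole multiple of a step per library, but 82.1% to 84.8% of low values were multiples of 3 steps, so a step is not a read, depth in fragments is unknown and no count test was run. No 2 libraries of a group were identical, and 0 columns of samples were left unmapped.

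Differences among the PANC-1 groups were tested with limma 3.58.1 under R 4.3.3, using lmFit, contrasts.fit and a trended eBayes, on log2(normalized count + 1), genes with a mean of at least 10, in 1 fit of 3 groups without a block, with Benjamini-Hochberg adjustment over 22544 genes and a threshold of 0.05. The procedure was tested on simulated data. The pseudocount understates changes of low genes. Lines were set side by side after rescaling to 1000000, with a pseudocount of 0.01. Lengths are the union of exons in GENCODE v29 basic. Summaries used Python 3.11.15, pandas 2.3.3 and numpy 2.4.6, and figures matplotlib 3.10.9.

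The members and lists were chosen with earlier results of these data known. The text names all 8 members, up to 3 genes per list, knockdown and direction with the largest change among those called, given a mean of 50 or more, the 3 genes most like each member, and markers that check a label. Some genes that this rule names are not reported here. TMEM234, GSHG0029452 and SF3B1 were chosen after their values were seen. The alternatives were other pseudocounts, filters, scaling and fits, each library left out and, chosen after seeing the data, transcript length in place of exon length.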

Additional observations from a re-analysis of the deposited data

Results flagged for a closer look

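SF1 was the only tested member other than the knocked-down genes whose response differed between siQKI and siRBFOX2 in a direct test. The difference, siQKI minus siRBFOX2, was 0.14 on the log2 scale (adjusted p = 0.012, limma), with all 3 siQKI libraries (110716 to 115957 normalized counts) above all 3 siRBFOX2 libraries (101512 to 104789). Without siQKI replicate 2 it was 0.12 (adjusted p = 0.064), and without the mean-variance trend the adjusted p was 0.072.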

How the results depend on the processing

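The falls of QKI in siQKI (-2.40 to -2.26 on the log2 scale) and of RBFOX2 in siRBFOX2 (-3.0 to -2.76), and the lower KHDRBS3 in both knockdowns, kept their direction and call in all 17 alternatives. The 4 members past the threshold in siRBFOX2 became 2 with no filter on low values, without the trend, with only the groups compared and after upper quartile rescaling, and 2 to 4 with single libraries left out. Without the trend STAR signalling genes in siRBFOX2 numbered 4. Between the knockdowns, genes past the threshold in the RBFOX complex list were 2 without the trend, 3 after upper quartile rescaling and 3 to 5 with a library left out, and in STAR signalling 3 without the filter, 3 without the trend and 2 to 5 with a library left out. Upper quartile rescaling turned KHDRBS1 in siQKI to 0.012, GSHG0029452 in siQKI against siRBFOX2 to 0.042, SF1 in HPAF-II to -0.036, and the summed paralogue change to 167% of the loss of QKI. With single libraries left out, RBFOX3 ranged from -0.68 to 0.19 in siQKI, from -1.29 to 0.45 in siRBFOX2 and from -0.74 to 1.0 between the knockdowns, KHDRBS3 between the knockdowns from -0.010 to 0.071, GSHG0029452 there from -0.088 to 0.056, and the summed change for QKI from -125% to -29.5%. The lower RBFOX2 in siQKI passed the threshold in 11 of the 17 alternatives. The cause of these shifts was not tested. Replicate numbers did not pair the libraries (r of same-numbered deviations from -0.03 to 0.02), and a replicate block took the members past the threshold in siRBFOX2 from 4 to 3, with KHDRBS1 lost (adjusted p = 0.059), and changed no other member's call.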
